A study of Mus musculus with 4 samples.

Results

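Ribosome biogenesis factors are the nucleolar and nuclear proteins that make, cut, modify and assemble ribosomal RNA on its way to the mature subunits. Here they are the 47 genes on a list of such factors, each taken by its gene name on the arrays, out of 37004 gene names, and they were read by 93 probes. All 47 were found on the arrays, and all 47 were well above the local background on each of the 4 arrays. They were sorted into 7 roles: 3 box C/D and 4 box H/ACA snoRNP proteins, 7 proteins of nucleolar organisation or linked to RNA polymerase I, 12 proteins of the small-subunit processome, 6 late pre-40S factors, 3 proteins of the PeBoW complex and 12 other pre-60S factors.

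The study asked how the nuclear receptors Nr4a1, Nr4a2 and Nr4a3 act when naive CD4+ T cells turn into induced regulatory T (iTreg) cells. Single-colour Agilent mouse arrays were used to read transcripts in 4 groups, naive T cells and iTreg cells at 3 h from each of the genotypes WT and Nr4a-TKO. Each group had 1 array and no replicate, so differences are given as values without any test, and their precision is limited by the number of arrays. Called genes are those more than 2-fold apart, the threshold the study used, and "rose" is written only of these.

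Both genotypes were on the C57BL/6J background, and the methods give 6- to 8-week-old mice of both sexes, without saying which sex was used for the arrays. Nr4a-TKO joins Nr4a1-floxed and Nr4a2-floxed alleles with Nr4a3-/-, and the Cre that deletes the floxed alleles is not given in the sources used here. The Nr4a-TKO cells carried Ly5.2 and a human CD2-CD52 reporter in Foxp3, and they were sorted from irradiated Rag2-/- recipients of Nr4a-TKO marrow mixed with WT (Ly5.1) marrow, since the CD4+ T cells of Nr4a-TKO mice are activated. WT cells (Ly5.2) came from irradiated Rag2-/- recipients of WT marrow alone, so that the genotype and the kind of chimera cannot be told apart. Naive cells were CD4+, Foxp3-, low for CD25 and CD44 and high for CD62L. For iTreg culture they were kept for 3 h on plate-bound anti-CD3 (2 µg/ml) with anti-CD28 (0.5 µg/ml), antibodies to IFN-γ and IL-4, IL-2 (10 ng/ml) and TGF-β1, given as 0.2 or 0.5 ng/ml without saying which dose the arrays had. The cells at 3 h therefore differ from naive cells in receptor stimulation, cytokines and time in culture together.

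Ribosome production begins in the nucleolus, where RNA polymerase I copies the ribosomal DNA into a long precursor. Box C/D and box H/ACA particles guide methyl and pseudouridine marks onto this precursor, the small-subunit processome folds and cuts it around the U3 snoRNA, and separate pre-40S and pre-60S particles then mature on their way to the cytoplasm. Resting lymphocytes make few ribosomes, and stimulated lymphocytes grow before they divide. Many genes of this pathway are known as targets of Myc.

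The arrays were alike in quality. Between 64.95% and 67.64% of probes were well above background, no spot was saturated, and repeated spots of a probe within an array gave an SD of 0.18 on the log2 scale for a difference between 2 arrays. This spot SD holds none of the variation in labelling, in hybridization, between arrays or between mice, so a difference beyond it is not shown to exceed that of replicates. CD4 T cell markers (7 genes) were well above background on the 4 arrays. Naive T cell markers fell more than 2-fold between naive and cultured cells for 5 of 6 genes on the arrays labelled WT and for 6 of 6 on those labelled Nr4a-TKO, and 7 of 8 early activation genes rose on each. The transcripts of the targeted genes did not follow the genotype labels throughout. On the naive array labelled Nr4a-TKO, Nr4a1 was 1.34 higher and the Nr4a2 probes 0.77 and 0.19 higher (log2) than on that labelled WT. At 3 h, Nr4a1 was 0.48 and the Nr4a2 probes were 1.37 and 1.38 higher for Nr4a-TKO, while the 3 Nr4a3 probes differed by -1.86, -1.47 and 0.19. Whether these probes lie in the deleted exons was not tested, and the genotypes below are those of the labels.

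After 3 h of iTreg culture, the transcripts of nearly all of these factors were more abundant in both genotypes. On the arrays labelled WT, 45 of 47 rose more than 2-fold and none fell, against 8.23% of all 26602 genes measured that rose and 8.23% that fell. The median change was 1.90 on the log2 scale, or 3.73-fold, and the middle 50% of the factors lay between 1.56 and 2.32. On the arrays labelled Nr4a-TKO, 45 of 47 rose and none fell, against 7.59% and 7.62% of 27166 genes, with a median change of 1.79, or 3.45-fold. Changes over 4-fold were read for 22 factors on the WT arrays and 15 on the Nr4a-TKO arrays, where 1.64% and 1.27% of all genes changed that much upwards. Every factor was higher on both arrays at 3 h than on both naive arrays, which held for 30.8% of all genes. Bop1 and Tcof1 were the exceptions to the 2-fold count in both genotypes. The 47 genes were listed with earlier results of these data known, so these counts may partly reflect how the list was made.

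**Figure D1:**
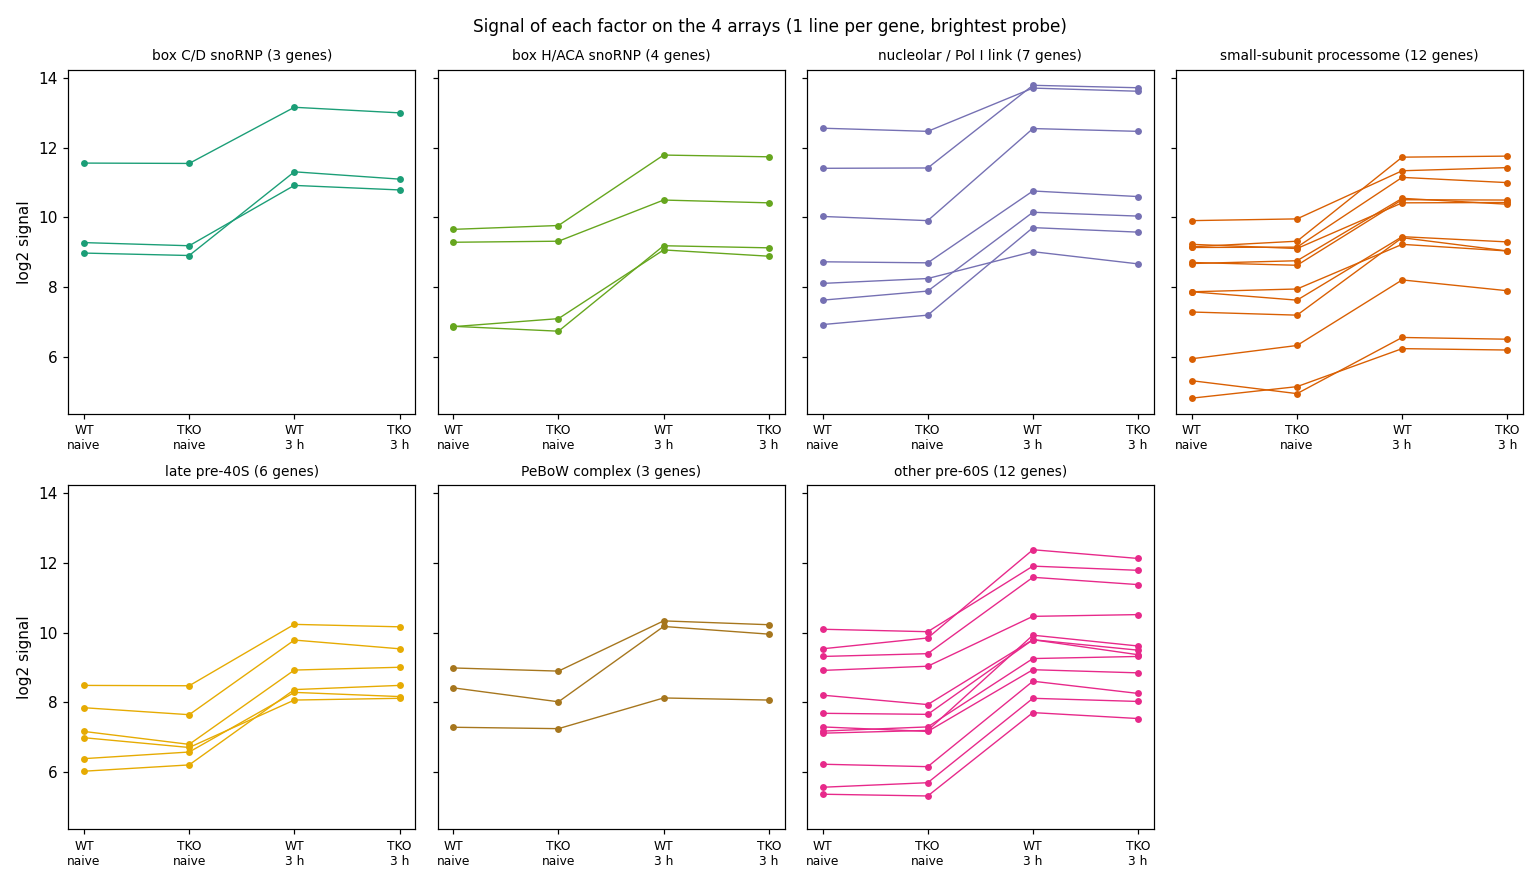
Signal (log2 of background-corrected, quantile-normalized intensity, y axis) of the 47 factors on the 4 arrays (x axis), with 1 line per gene and 1 panel per role. In each panel the 2 arrays at 3 h lie above the 2 naive arrays for every gene, and the lines between the genotypes are close to level.

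The box C/D particle methylates ribosomal RNA, and its 3 proteins on the list rose in both genotypes, with a median change of 1.64 on the WT and 1.60 on the Nr4a-TKO arrays. Nop58, a core scaffold protein of the particle, read 8.98 on WT naive T, 8.91 on Nr4a-TKO naive T, 11.31 on WT iTreg and 11.10 on Nr4a-TKO iTreg in log2 signal. The 2 naive arrays were thus within 0.07 of each other, and culture raised Nop58 by 2.33 (5.01-fold) and 2.18 (4.54-fold). Fbl, the methyltransferase fibrillarin, read 11.56 and 11.55 on the naive arrays and 13.16 and 13.00 at 3 h, WT first. Its changes of 1.60 and 1.45 were the smallest of the 3. Nop56, the partner scaffold of Nop58, rose by 1.64 and 1.60.

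Nop58 was read by 5 probes, which spread over its gene. The intron-spanning one is shown because only spliced RNA holds its whole sequence. It lies at chr1:59752924-59755206 on the plus strand of mm9:
Nop58 probe: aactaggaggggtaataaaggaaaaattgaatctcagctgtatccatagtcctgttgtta
This probe changed by 2.42 on the WT and 2.45 on the Nr4a-TKO arrays. Of the other probes, 3 lay between 2.33 and 2.62 on the WT arrays. The last one, annotated to an Ensembl transcript where the others have a RefSeq one, changed by 1.42 on the WT and 1.46 on the Nr4a-TKO arrays. All 5 thus rose.

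The box H/ACA particle converts uridine to pseudouridine, and all 4 of its proteins rose in both genotypes, by a median of 2.16 on the WT and 1.88 on the Nr4a-TKO arrays. Nhp2 read 6.88 on WT naive T, 6.74 on Nr4a-TKO naive T, 9.19 on WT iTreg and 9.13 on Nr4a-TKO iTreg. It had the largest change of the particle, 2.31 (4.95-fold) and 2.39 (5.23-fold). Nop10, the smallest protein of the particle, read 9.29 and 9.32 on the naive arrays and 10.50 and 10.42 at 3 h, WT first. Its changes, 1.20 and 1.10, were the lowest here and lay near the 2-fold line. Dkc1, the pseudouridine synthase dyskerin, rose by 2.19 and 1.79, and Gar1 by 2.12 and 1.97.

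Among the 7 proteins of nucleolar organisation and the RNA polymerase I link, 6 rose in each genotype, with medians of 2.39 on the WT and 2.14 on the Nr4a-TKO arrays. Gnl3, the nucleolar GTPase nucleostemin, read 6.93 on WT naive T, 7.20 on Nr4a-TKO naive T, 9.71 on WT iTreg and 9.58 on Nr4a-TKO iTreg. It changed by 2.77 (6.84-fold) and 2.38 (5.21-fold), with the WT naive array the lowest of the 4. Nolc1, a snoRNP chaperone, rose by 2.52 and 2.56, the latter being the largest change of any factor on the Nr4a-TKO arrays. The RNA helicase Ddx21 rose by 2.52 and 2.14, nucleolin (Ncl) by 2.39 and 2.31, and Mybbp1a by 2.03 and 1.90.

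Tcof1, the treacle protein that supports transcription of ribosomal DNA, was one of the 2 factors that stayed under 2-fold. Its log2 signal was 8.11 on WT naive T, 8.25 on Nr4a-TKO naive T, 9.02 on WT iTreg and 8.67 on Nr4a-TKO iTreg. Culture thus moved it by 0.91 (1.87-fold) on the WT and by 0.42 (1.34-fold) on the Nr4a-TKO arrays, and both values are above the spot SD of 0.18. Its second probe gave 0.80 and 0.52. The WT value crossed the 2-fold line, at 1.07 and 1.09, when the intensities were scaled to the 75th percentile or the deposited values were used.

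Npm1, the abundant nucleolar chaperone nucleophosmin, has processed pseudogenes in the genome, and which copies its probes read is uncertain. Its brightest probe is shown since it spans an intron, at chr11:33056689-33056991 on the minus strand of mm9:
Npm1 probe: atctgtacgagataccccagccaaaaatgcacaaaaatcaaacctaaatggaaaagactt
The probe read 12.56 on WT naive T, 12.47 on Nr4a-TKO naive T, 13.71 on WT iTreg and 13.62 on Nr4a-TKO iTreg. Its change was 1.15 in each genotype, 2.22-fold. A second probe gave 1.09 and 1.30. The third gave 2.17 and 2.16, over 2-fold like the others but about 1 log2 unit higher.

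The small-subunit processome cuts and folds the 5' part of the precursor. All 12 of its proteins on the list rose in both genotypes, by a median of 1.69 on the WT and 1.60 on the Nr4a-TKO arrays. Rcl1, which is needed for a cleavage that frees the small-subunit RNA, read 9.16 on WT naive T, 9.32 on Nr4a-TKO naive T, 11.73 on WT iTreg and 11.76 on Nr4a-TKO iTreg. Its change was the largest of the group, 2.58 (5.97-fold) and 2.44 (5.43-fold). Dcaf13 had the smallest on the WT arrays, with 9.23 and 9.11 on the naive arrays, 10.42 and 10.43 at 3 h, WT first, and changes of 1.18 and 1.32. Between them lay the U3-binding protein Rrp9 (2.13 and 1.85), the large scaffold Heatr1 (2.02 and 1.85), Wdr43 (1.87 and 1.62), Wdr75 (1.80 and 1.86), Nop14 (1.58 and 1.66), Utp15 (1.24 and 1.56) and the helicase Ddx10 (1.43 and 1.05).

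Utp20 was the factor whose changes differed most. It read 5.95 on WT naive T, 6.33 on Nr4a-TKO naive T, 8.21 on WT iTreg and 7.90 on Nr4a-TKO iTreg. The Nr4a-TKO array was the higher one before culture and the lower one after it, and the change was 2.26 on the WT and 1.57 on the Nr4a-TKO arrays.

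Imp4 and Noc4l, of the same processome, had probes that differed from each other by more than 1 in the WT change. Imp4, a U3 snoRNP protein, was read as 7.87, 7.95, 9.23 and 9.04 in the array order above, a change of 1.35 and 1.09. Its other probes, annotated to 2 Ensembl transcripts, changed by 0.21 and 0.35 on the WT and by 0.87 and 0.90 on the Nr4a-TKO arrays, under 2-fold. Whether they read another form of the transcript was not tested. For Imp4 the call therefore rests on the brightest probe, and the mean of its 3 probes changed by 0.64 and 0.96. Noc4l read 9.91, 9.96, 11.34 and 11.43, a change of 1.43 and 1.47, and its dimmer probe gave 2.46 and 2.16.

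Late pre-40S factors guide the small subunit through export and its last cleavage. All 6 rose in both genotypes, by a median of 1.83 and 1.79. Pno1 read 6.03 on WT naive T, 6.21 on Nr4a-TKO naive T, 8.37 on WT iTreg and 8.49 on Nr4a-TKO iTreg, changes of 2.34 (5.07-fold) and 2.28 (4.86-fold). Nob1, the nuclease for the last cut of 18S RNA and the partner of Pno1, read 6.99 and 6.71 on the naive arrays and 8.07 and 8.12 at 3 h. It had the smallest WT change of the group, 1.09 (2.13-fold), and one of 1.40 (2.65-fold) on the Nr4a-TKO arrays. The WT change of Nob1 was under 2-fold with a normexp offset of 50 (0.85) and without background correction (0.99). Rrp12 rose by 1.94 and 1.88, Bysl by 1.90 and 1.59, Tsr1 by 1.75 and 1.69 and Ltv1 by 1.77 and 2.21, so Ltv1 and Nob1 were the 2 of the group with the larger value on the Nr4a-TKO arrays. A second Ltv1 probe was not well above background on any array and gives no value.

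The PeBoW complex of Pes1, Bop1 and Wdr12 is needed to process the large-subunit RNA, and it had the lowest medians of the 7 roles, 1.36 and 1.33. Bop1 read 7.29 on WT naive T, 7.25 on Nr4a-TKO naive T, 8.13 on WT iTreg and 8.07 on Nr4a-TKO iTreg. Its changes were 0.84 (1.79-fold) and 0.82 (1.76-fold), alike in both genotypes and under 2-fold, and Bop1 had a single probe. Pes1 rose by 1.36 and 1.33. Wdr12 read 8.42 and 8.02 on the naive arrays and 10.18 and 9.96 at 3 h, and it rose by 1.76 and 1.94.

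Wdr12 had 6 probes, the most of any factor. The 4 that were well above background on every array rose by 1.58 to 1.93 on the WT arrays and by 1.65 to 2.23 on the Nr4a-TKO arrays. A probe annotated to an Ensembl transcript was well above background on 2 arrays only and differed by 0.28 and 0.02. The sixth was not well above background on any array.

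The 12 other pre-60S factors all rose in both genotypes, by a median of 2.19 (4.57-fold) on the WT arrays and 2.00 on the Nr4a-TKO arrays. Mrto4, the factor whose place on the pre-60S particle the stalk protein P0 later takes, had the largest WT change of all 47. It read 9.54 on WT naive T, 9.85 on Nr4a-TKO naive T, 12.38 on WT iTreg and 12.13 on Nr4a-TKO iTreg, changes of 2.84 (7.16-fold) and 2.28 (4.86-fold). Nop2, a methyltransferase for a cytosine of the large-subunit RNA, read 7.12 and 7.20 on the naive arrays and 9.93 and 9.62 at 3 h, changes of 2.81 (7.01-fold) and 2.42 (5.36-fold). For both, the WT array was the higher one at 3 h.

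At the low end of this group, Brix1 read 8.92 and 9.04 on the naive arrays and 10.47 and 10.52 at 3 h, and it rose by 1.55 and 1.48. Ppan rose by 2.56 and 2.33, Noc3l by 2.39 and 2.10, Nop16 by 2.34 and 2.23, Rrs1 by 2.27 and 1.98 and Nip7 by 2.08 and 2.02. The rRNA methyltransferase Ftsj3 rose by 1.80 and 1.76, the helicase Ddx18 by 1.64 and 1.68 and Noc2l by 1.59 and 1.56. Rrp1b read 7.69 on WT naive T, 7.66 on Nr4a-TKO naive T, 9.80 on WT iTreg and 9.37 on Nr4a-TKO iTreg, changes of 2.11 and 1.71. Its 3 other probes changed by 0.99, 1.86 and 2.61 on the WT arrays, and by 0.61, 2.17 and 1.64 on the Nr4a-TKO arrays. The 2 lowest values belong to 1 probe, annotated to an Ensembl transcript.

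**Figure D2:**
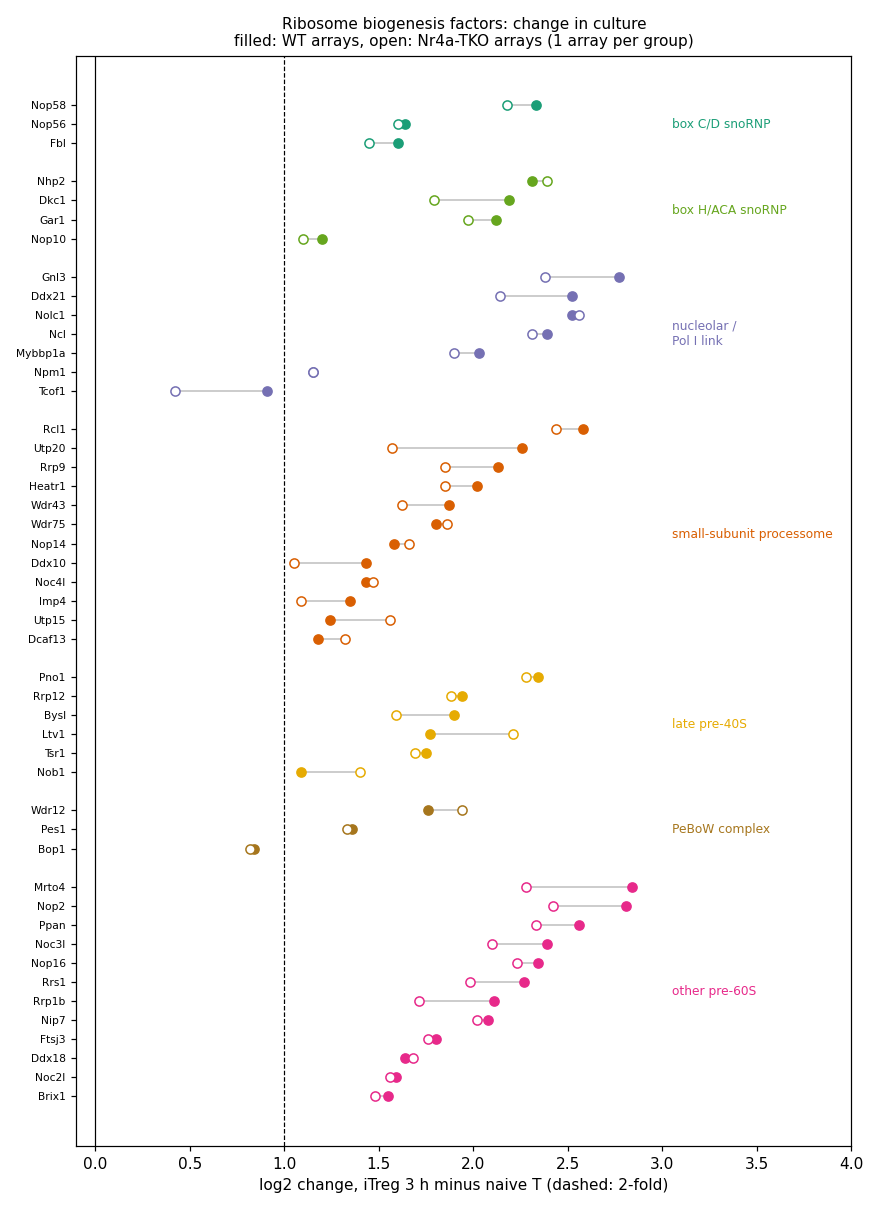
Log2 change between naive T and iTreg at 3 h (x axis) of the 47 factors, grouped by role, with filled points for the arrays labelled WT and open points for those labelled Nr4a-TKO and a dashed line at 2-fold. Bop1 and Tcof1 lie left of the line in both genotypes, and the WT changes reach 2.84 at Mrto4.

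Over all 93 probes, 84 of the 91 that could be measured rose more than 2-fold on the WT arrays and 82 of 90 on the Nr4a-TKO arrays, and none fell. Leaving the brightest probe of each gene aside, 39 of the other 44 rose on the WT arrays. The probes of a gene mostly gave like values. Among 25 genes with several measured probes, the median range between them was 0.25, and it exceeded 1 for 6 genes, Imp4, Noc4l, Nop58, Npm1, Rrp1b and Wdr12. One Heatr1 probe had no value on the Nr4a-TKO array at 3 h, because its spot was marked as an outlier.

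**Figure D3:**
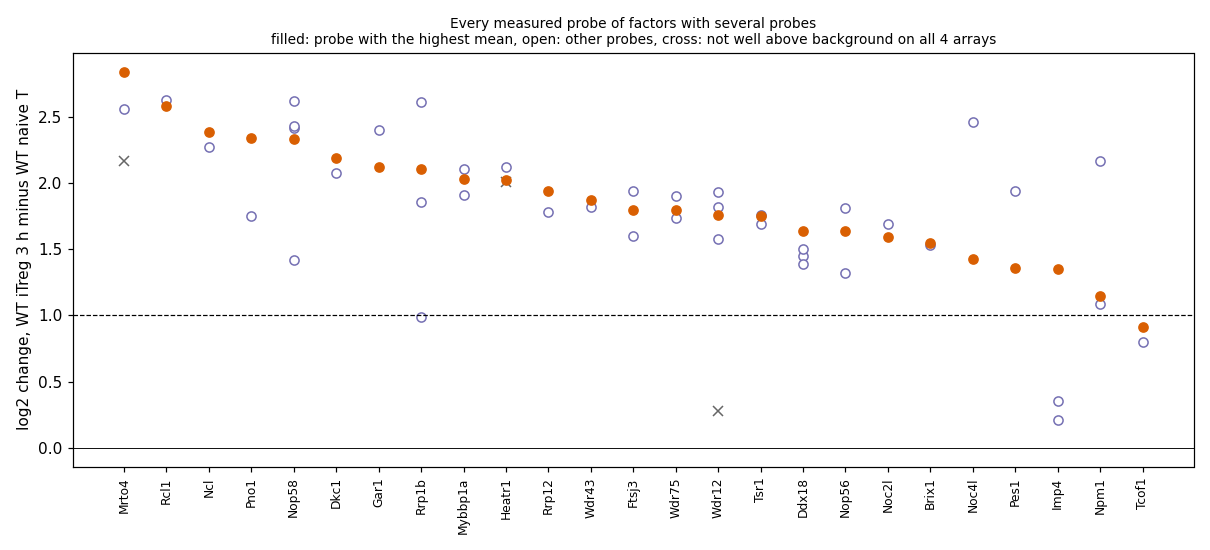
Log2 change on the arrays labelled WT (y axis) for every measured probe of the 25 factors with several, with filled points for the brightest probe, open points for the others and crosses for probes not well above background on all 4 arrays. Of the 6 genes whose probes spread by more than 1, Imp4 and Rrp1b have open points below the dashed 2-fold line, and Wdr12 has a cross there at 0.28.

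Across the 47 factors, the order of the changes was much the same in both genotypes, with a Pearson r of 0.90 and a Spearman rho of 0.91. Over the 22647 genes that passed the background flag on each of the 4 arrays, r was 0.84. These values are across genes, which are not independent replicates, and the 2 changes share no array.

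The rise was wider than the 47 genes, and it did not extend to the ribosomal proteins. Among 49 other large-subunit factors measured, 35 rose in each genotype, with medians of 1.55 and 1.36. The nucleolar protein Lyar was the highest at 2.77 and 2.49, and Sbds, which acts in the last cytoplasmic steps, differed by -0.59 and -0.27. Of 40 other small-subunit factors, 22 rose in each genotype, with medians of 1.19 and 1.13 and Dhx33 the highest at 2.67 and 2.18.

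RNA polymerase I and its initiation factors rose for 9 of 16 genes on the WT and 10 of 16 on the Nr4a-TKO arrays, with medians of 1.10 and 1.14. Polr1b, its second largest subunit, changed by 2.43 and 1.85, and the initiation factor subunit Taf1b by -0.37 and -0.50. With a normexp offset of 50, only 5 and 4 of the 16 passed 2-fold. The RNA exosome, which trims precursors, rose for 4 of 14 genes in each genotype, with medians of 0.69 and 0.80 and its nuclease Dis3 the highest at 2.34 and 2.04. Scaling to the 75th percentile brought the count on the Nr4a-TKO arrays to 7. The probes that stood for Exosc2, Exosc9 and Ubtf, genes of these lists, read 16.14, 15.52 and 16.74 on WT naive T. No cytosolic ribosomal protein read above 15.01 on that array. These probes changed by 0.11, 0.04 and 0.04 on the WT arrays. Whether they read only their own transcripts was not tested, and the counts and medians include them.

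The cytosolic ribosomal proteins, the building blocks that these factors assemble, did not move with them. Their median change over 79 genes was 0.01 in each genotype, and 1 of 79 rose. That gene was Rpl37, with 1.29 and 1.65, whose probe was well above background on 2 arrays only. The summed linear signal of the 79 lay between 773000 and 782000 on the 4 arrays. Whether the probes of these genes read only their own transcripts was not tested. Quantile normalization gives the arrays 1 common distribution, so each change is relative to the other transcripts and says nothing of the RNA content of a cell. No gene of these 5 lists fell more than 2-fold. The lists are described by counts and medians without a test.

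**Figure D4:**
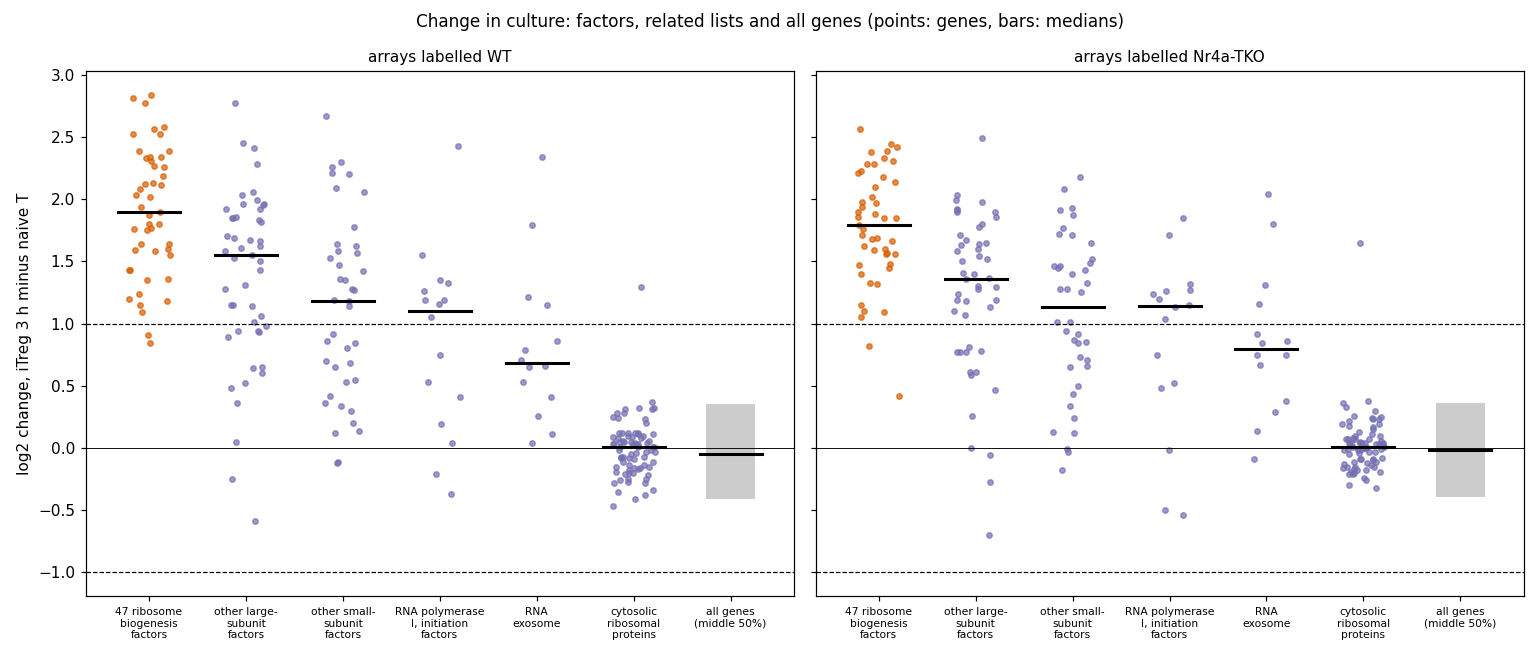
Log2 change between naive T and iTreg at 3 h (y axis) for the 47 factors, 5 related lists and all genes, with arrays labelled WT on the left and Nr4a-TKO on the right. Points are genes and bars medians, the grey box is the middle 50% of all genes, and the medians run from 1.90 and 1.79 for the 47 factors to 0.01 for the ribosomal proteins.

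In naive T cells, the factors read close to each other in the 2 genotypes. None differed by more than 2-fold in either direction, where 1.86% of 26446 genes were higher and 1.72% lower for Nr4a-TKO. The factors were all well above background on each of the 4 arrays. Among the 22647 genes of that kind the shares were 0.927% and 0.861%, so no call among 47 factors is near that share. The median difference, Nr4a-TKO minus WT, was -0.01, with 25 of 47 below 0 against 52.8% of all genes. The differences ran from -0.40 for Wdr12 to 0.38 for Utp20, and 32 of 47 were within the spot SD of 0.18. Beyond it, 7 factors were lower and 8 higher, against 26% and 23.3% of all genes.

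In iTreg cells at 3 h, again none of the factors differed by more than 2-fold, where 1.69% of 26919 genes were higher and 1.87% lower for Nr4a-TKO. Among the genes well above background on each of the 4 arrays, the shares were 0.954% and 0.835%. No call among 47 factors is again near that share. The factors' differences were small and mostly of 1 sign. The median was -0.12, a ratio of 0.923, with 39 of 47 below 0 against 49.7% of all genes. The factors lower by more than 0.18 numbered 13 of 47, which is near the 23.5% of all genes. None was higher by more than 0.18, against 25%. The other probes of these genes, left out of that count, gave a median of -0.10, with 36 of 43 below 0.

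Rrp1b was the lowest at -0.44, a ratio of 0.738, and its 3 other probes gave -0.24, -0.54 and -0.37. All 4 of its probes were thus lower on the array labelled Nr4a-TKO by more than the spot SD. Rrp9 followed at -0.37, then Tcof1 and Noc3l at -0.35, Nop2 and Utp20 at -0.31 and Noc2l at -0.30. Tcof1 had a second probe, at -0.30. The highest was Pno1 at 0.12, within the spot SD.

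By role, the median difference at 3 h was -0.19 for the other pre-60S factors, of which 10 of 12 were below 0 and 6 lower by more than 0.18. It was -0.16 for box C/D, -0.12 for the nucleolar group, -0.11 for PeBoW, -0.10 for the processome and -0.07 for box H/ACA. The late pre-40S factors had a median of -0.01, with 3 of 6 below 0. All 7 nucleolar proteins, all 4 of box H/ACA and all 3 of box C/D were below 0, most of them within the spot SD.

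Among the related lists at 3 h, the other factors of both subunits lay mostly below 0, and the ribosomal proteins did not. Of the other large-subunit factors, 40 of 49 were below 0 with a median of -0.12, and of the other small-subunit factors 32 of 40 with a median of -0.11. The lowest were the helicase Ddx51 at -0.54 and Nol6 at -0.41. RNA polymerase I had 10 of 16 below 0 (median -0.05) and the exosome 8 of 14 (median -0.11). The ribosomal proteins had 38 of 79 below 0 and a median of 0.01. No gene of these lists differed by more than 2-fold.

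**Figure D5:**
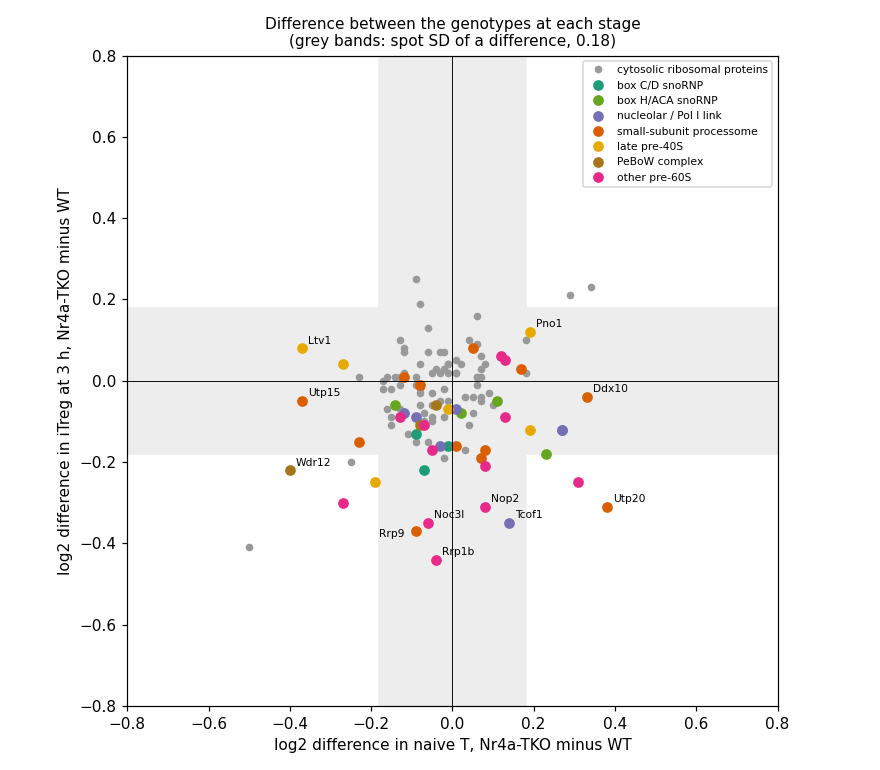
Log2 difference Nr4a-TKO minus WT in naive T (x axis) and in iTreg at 3 h (y axis) for the 47 factors, coloured by role, and the cytosolic ribosomal proteins in grey, with bands at the spot SD of 0.18. The factors spread evenly about 0 from left to right, and 39 of 47 lie below 0 on the y axis, down to -0.44 at Rrp1b.

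The differences at 3 h did not follow those in naive cells. Across the 47 factors the 2 differences, which share no array, had an r of -0.03 and a rho of -0.03, against an r of 0.20 over 22647 genes. Wdr12 was lower on both Nr4a-TKO arrays, by -0.40 and -0.22, and Noc2l by -0.27 and -0.30. Wdr12's other probes well above background on every array gave -0.40 to 0.01 in naive cells and -0.15 to -0.10 at 3 h. The other Noc2l probe gave -0.11 and -0.26. Utp20 went from 0.38 to -0.31, Mrto4 from 0.31 to -0.25 and Ltv1 from -0.37 to 0.08. Utp20 and Ltv1 each rest on a single usable probe. Another bright Mrto4 probe gave 0.14 and -0.08, within the spot SD, and a dim one 0.50 and -0.24.

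Taken gene by gene, the Nr4a-TKO change minus the WT change had a median of -0.10 and was below 0 for 35 of 47 factors, against 48.2% of all genes. It was below -0.18 for 16 and above 0.18 for 3, against 27.2% and 30.9%. No factor passed 2-fold, as 2.46% and 2.35% of 25522 genes did upwards and downwards. Of the genes well above background on each of the 4 arrays, 1.73% and 1.56% did. The upward share of all genes ran from 0.384% with a normexp offset of 50 to 5.44% without a floor or filter on dim probes. The range ran from -0.69 for Utp20 to 0.44 for Ltv1. Since each genotype has 1 array per stage, no spread between mice stands beside these values, and it was not tested whether the genotypes differ.

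Other measures also differed between the 2 arrays at 3 h. Myc, the transcription factor named above, was lower on the array labelled Nr4a-TKO. Its brighter probe read 10.16 on WT naive T, 10.02 on Nr4a-TKO naive T, 12.51 on WT iTreg and 11.85 on Nr4a-TKO iTreg, a difference of -0.66 at 3 h, and its other probe gave -0.51. The summed linear signal of the 7 CD4 T cell markers was 18800 on WT and 13800 on Nr4a-TKO iTreg, against 26600 and 25300 on the naive arrays. Gene by gene, 6 of the 7 were lower on Nr4a-TKO iTreg, 5 of them by more than the spot SD, and Lck was 0.16 higher. The 8 early activation genes summed to 26900 on WT and 31100 on Nr4a-TKO iTreg, against 4660 and 5780 on the naive arrays. On Nr4a-TKO iTreg 6 of the 8 were higher, 3 of them by more than the spot SD, with Il2 the highest at 1.20. Tnfrsf9 was the lowest, at -3.60. B cell and MHC class II genes, all 8 well above background on every array, summed to 1250 and 1950 on the naive arrays, WT first. At 3 h they summed to 977 and 1940. On Nr4a-TKO iTreg 8 of 8 were higher, 7 of them by more than the spot SD, and on Nr4a-TKO naive T 7 of 8 were higher. The part of each in the factors' difference was not tested, and in bulk RNA fewer cells of a type and less RNA per cell cannot be told apart.

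The E-box CACGTG, the core motif that Myc with its partner Max can bind and its own reverse complement, was searched in the RefSeq promoters of GRCm38.p6, which run from 250 bases before to 50 after each gene's start. Of the 47 factors, 40 had an entry, with 44 promoters in all, and 9 of these held the motif (20.5%). It was held by 7.15% of all 32851 promoters, and by 11.5% of the 10320 promoters with at least 17 CpG. The factors' promoters ran from 5 to 44 CpG, with a median of 22 against 7 for all, and were not cut at 17. The 11.5% is thus not a matched share. In 7 of the 9 the motif followed the start, in Ltv1, Mybbp1a, Pes1, Pno1, Tsr1, Utp20 and Wdr43. In Nop2 and Imp4 it lay upstream, and these stretches are shown, with the motif in capitals, as the upstream matches of a factor with a large and of one with a small WT change, 2.81 and 1.35.
Nop2, chr6:125131769-125131882, plus strand: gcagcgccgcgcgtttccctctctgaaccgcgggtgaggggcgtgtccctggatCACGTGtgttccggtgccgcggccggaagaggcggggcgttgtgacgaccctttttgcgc
Imp4, chr1:34439654-34439767, plus strand: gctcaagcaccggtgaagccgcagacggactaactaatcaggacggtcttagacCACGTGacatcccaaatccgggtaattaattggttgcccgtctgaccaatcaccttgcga
The motif begins 60 bases before the start in Nop2 and 121 bases before it in Imp4. A match describes the letters only, and binding was not measured on these arrays.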

How the data were processed

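The 4 arrays were 1 Agilent array per group, grouped by the labels, with 100 ng of RNA labelled per array. The authors deposited the intensity of each spot and of its local background from Feature Extraction 11.5.1.1, with probe coordinates on mm9. They also deposited log2 values, which the methods name as RMA in GeneSpring, while each column was found to be log2 processed intensity relative to that array's 75th percentile. These served as an alternative.

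Following RMA, mean intensities were corrected with normexp (offset 0) against the local background, quantile-normalized over the 4 arrays and averaged on the log2 scale over the spots of a probe, with limma 3.58.1 in R 4.3.3. Control spots and between 115 and 160 outlier spots per array were left out. Each gene was represented by its brightest probe, by the mean over all arrays. Dim probes, those not well above background, were set to that array's lowest value among probes that were (3.07 to 3.45), unless their own was higher, and a difference needed at least 1 of its 2 arrays well above background. Tables and plots used Python 3.11.15, pandas 2.3.3, numpy 2.4.6 and matplotlib 3.10.9. The spot SD came from 300 probes with at least 5 spots.

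The members, roles and related lists were chosen with earlier results of these data known. Values on the 4 arrays were given, in each role, for the largest and the smallest change on the arrays labelled WT, for any member past 2-fold between genotypes, for any past 2-fold in one genotype and under 1.5-fold in the other (no member met these), and for members whose probes differed by over 1. The array values of Utp20 and Nop2 and Imp4's promoter were added after their values were seen. On simulated data for a second array against WT naive T, with 15439 bright probes, 200 were changed by at least 3-fold. Counting past 2-fold recovered 100% of these and 1 unchanged probe. The noise added was only the spread of repeated spots within an array. This checks the counting, and cannot give its errors between real arrays, for dim probes or for changes near 2-fold. The alternatives were another scaling, the deposited values, an offset of 50 or no background correction, averaging over probes, a stricter filter on dim probes or none, the mean for the median, and calls at 1.5-fold or 3-fold.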

Additional observations from a re-analysis of the deposited data

How the results depend on the processing

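The 2 changes in culture and the difference between genotypes at 3 h kept their direction under every alternative run. The naive difference did not have a settled sign, with a median of -0.01 and 25 of 47 below 0, against 0 and 23 of 47 after scaling to the 75th percentile and with the deposited values. The number that rose more than 2-fold lay between 42 and 46 on the arrays labelled WT and between 42 and 45 on those labelled Nr4a-TKO when the background correction, the scaling, the filter or the probe summary was changed, and none fell. A normexp offset of 50, which compresses low signals, gave the lowest medians, 1.68 (WT) and 1.55 (Nr4a-TKO). The deposited values gave the highest, 2.07 (WT) and 1.98 (Nr4a-TKO). With calls at 1.5-fold, 47 (WT) and 46 (Nr4a-TKO) factors were higher, and with calls at 3-fold 34 and 32. The share of all genes more than 2-fold higher, reported as 8.23% (WT) and 7.59% (Nr4a-TKO), ran from 3.91% to 9.94% and from 3.38% to 9.28%, lowest with the offset. Between genotypes it was reported as 1.86% (naive) and 1.69% (3 h) and ran from 0.42% to 2.79% and from 0.305% to 2.76%. The median difference between the genotypes at 3 h stayed between -0.12 and -0.09 (the mean was -0.13), with 37 to 39 factors below 0, while the count of ribosomal proteins below 0 went from 38 to 22 of 79 under scaling to the 75th percentile. The same scaling moved the median change of all genes on the WT arrays to -0.11, against -0.05. No paired analysis was possible because each group has 1 array, and for the same reason no replicate could be left out. Dim probes of Wdr12 and Ltv1, with signals near background, give no usable difference.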
